A study of Mus musculus with 6 samples.

Results

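The guanylate-binding proteins (GBPs, Gbp genes) are large GTPases that interferon induces in most cell types. The 9 mouse genes described here are Gbp2, Gbp2b, Gbp3, Gbp4, Gbp5, Gbp6, Gbp7, Gbp8 and Gbp9. Membership was set by gene name among the 54532 genes of the deposited table, with no measured value in the rule, and all 9 passed the filter on low values that left 16426 genes (a mean FPKM of at least 0.5 over the tumors; FPKM is fragments per kilobase of gene, scaled to the size of the library). The 6 whole tumors sequenced came from mice with colitis-associated carcinoma, induced by azoxymethane and dextran sulfate sodium (AOM/DSS). In Tmem173fl/fl mice (3 tumors, libraries AOM_WT) both alleles of Tmem173, the gene for the DNA-sensing adaptor STING, were floxed but not recombined. In Tmem173iΔmye mice (Tmem173fl/fl Lyz2-Cre-ert2, 3 tumors, libraries AOM_CRE) a tamoxifen-inducible Cre was driven by the Lyz2 promoter, which acts in macrophages, monocytes and neutrophils. Both groups received AOM, DSS and, after 3 cycles of AOM/DSS, tamoxifen, and the methods of the study give a C57BL/6N background for its genetically modified mice. The comparison asked what loss of myeloid STING changes in tumors that are already present. The labels number the tumors within each group and do not say more on how they relate, so p-values measure the spread between these tumors only.

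GBPs bind and hydrolyse GTP, assemble into multimers and coat the membranes of vacuoles and bacteria, where they help to break the compartment open and to feed caspase-11 and the AIM2 inflammasome. Interferon-γ is their classical inducer. It acts through the receptor chains IFNGR1 and IFNGR2, the kinases JAK1 and JAK2, the gamma-activated site (GAS) in promoters, and IRF1. Type I interferon acts through the interferon-stimulated response element (ISRE), to which a complex with STAT2 and IRF9 binds. STING lies upstream of type I interferon. In the gut, GBPs are made by epithelial, myeloid, lymphoid and endothelial cells once interferon is present. In whole-tumor RNA, fewer cells of a type and less RNA per cell cannot be told apart.

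The genes lie in 2 clusters in GRCm38 (mm10), the build of the deposited coordinates. Gbp5, Gbp7, Gbp3, Gbp2b and Gbp2 lie in that order on the plus strand of chromosome 3, from the start of Gbp5 at 142493978 to the end of Gbp2 at 142638008. Gbp8, Gbp9, Gbp4 and Gbp6 lie on the minus strand of chromosome 5, from 105014150, the lower end of Gbp8, to 105293698, the upper end of Gbp6. Gbp10 and Gbp11, the remaining mouse genes of the family, lie in the second cluster as well. The paralogs resemble one another in sequence. Of all 50-base windows of the annotated transcripts (GENCODE M21), 12.2% of those of Gbp8, 11.5% of Gbp6, 7.24% of Gbp4, 5.89% of Gbp9, 2.07% of Gbp3 and 1.98% of Gbp7 also occur in another Gbp gene, and none of those of Gbp2, Gbp2b or Gbp5. In addition, exons of Gbp4, Gbp8 and Gbp9 overlap by 60 or 61 bases. The counting of reads that map to several genes is not given in the sources used here, so the chromosome 5 members are the less certain ones.

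RefSeq promoter windows (GRCm38.p6, 250 bases before to 50 after the start of transcription) were at hand for Gbp2, Gbp2b, Gbp3, Gbp5 and Gbp7, and not for Gbp4, Gbp6, Gbp8 or Gbp9. They were searched on both strands for the GAS letters TTCNNNGAA and for the ISRE core GAAANNGAA, because these are the elements through which the inducers of the family act. Gbp3 had 2 windows and the other genes 1 each. All 5 genes held the ISRE core, although the second window of Gbp3 held neither motif, and Gbp5 and Gbp7 held GAS as well. Among 32851 windows of 27025 genes, 8.56% held the ISRE core, 8.30% held GAS and 1.07% held both. The stretches around the matches are given below, 5′ to 3′ on the plus strand of chromosome 3, with the matched letters in capitals. A core read on the minus strand appears as its reverse complement. For Gbp2, Gbp3 and Gbp5 the matches are shown with up to 10 bases on either side, at 142620595 to 142620623 for Gbp2, 142559993 to 142560021 for Gbp3, and, for Gbp5, 142496684 to 142496707, 142496760 to 142496788 and 142496872 to 142496900.
Gbp2, ISRE core: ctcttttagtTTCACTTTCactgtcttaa
Gbp3, 2 overlapping ISRE cores: acacagtTTCAGTTTCTATTTCccagatc
Gbp5, GAS, distal: gcaacTTCTGGGAAattagttcag
Gbp5, ISRE core: cttgtgtagtTTCAATTTCagtttagaga
Gbp5, GAS, proximal: tggccgttatTTCTCAGAAccaagcacag
For Gbp2b and Gbp7 the 170 bases before the start are shown, at chr3:142594677-142594846 and chr3:142530166-142530335 on chromosome 3. In these 2 genes the 170 bases overlap no exon of the gene in GENCODE M21, whereas in Gbp2, Gbp3 and Gbp5 they do.
Gbp2b: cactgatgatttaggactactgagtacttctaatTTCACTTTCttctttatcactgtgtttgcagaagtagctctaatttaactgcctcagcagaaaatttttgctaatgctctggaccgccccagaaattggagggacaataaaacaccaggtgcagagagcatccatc
Gbp7: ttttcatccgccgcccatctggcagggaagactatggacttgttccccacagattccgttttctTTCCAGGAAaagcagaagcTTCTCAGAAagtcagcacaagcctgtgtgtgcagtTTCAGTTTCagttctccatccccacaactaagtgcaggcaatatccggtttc
Gbp2 and Gbp2b thus carry the core with the same 9 letters, at bases -58 to -50 in Gbp2 and -136 to -128 in Gbp2b relative to the start. In Gbp7 the ISRE core lies at -52 to -44, downstream of both GAS matches at -106 and -87. These positions are relative to the RefSeq start. The deposited coordinates start Gbp2 at 142620602 and Gbp5 at 142493978, so the matches of Gbp2 and Gbp5 lie within the genes as annotated there. A match is a stretch of letters and no evidence of binding.

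**Figure D1:**
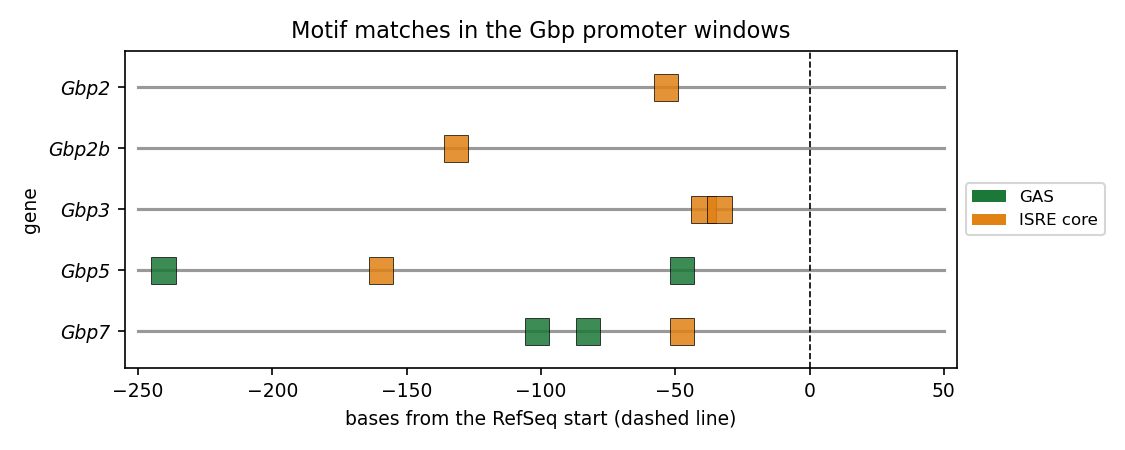
Positions of GAS (green) and ISRE core (orange) matches in the promoter windows of 5 Gbp genes, with bases from the RefSeq start on the x axis and the gene on the y axis. Each gene has at least 1 ISRE core upstream of the RefSeq start (for Gbp3 in the first of its 2 windows, the 1 with matches), and GAS occurs in Gbp5 and Gbp7. By the deposited coordinates the matches of Gbp2 and Gbp5 lie within the gene.

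Library totals ran from 15329810 to 16533732 reads counted to genes, so depth differed little between tumors. Tmem173 itself, measured over the whole tumor and not only in the myeloid cells where the Cre acts, had a FPKM of 48.6, 84.5 and 44.2 in Tmem173fl/fl and of 62.7, 61.0 and 53.7 in Tmem173iΔmye replicates 1, 2 and 3. The groups overlapped, and the log2 fold change was 0.0015 (SE 0.24, adjusted p = 0.9998 by edgeR), so the targeted gene did not check the labels at the level of the whole tumor. Epithelial markers such as Epcam and Krt8 summed to between 8726 and 10832 CPM (library-scaled counts). More than 100 Y-linked reads were counted in 1 Tmem173fl/fl tumor (replicate 1) and in 2 Tmem173iΔmye tumors (replicates 1 and 2), so the groups were not balanced for sex. Tmem173iΔmye replicate 1 stood apart from the other tumors in the Gbp genes. The values without it are given beside those of the Gbp genes and of some of the other genes and lists they are compared with.

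Summed over the 9 genes, Gbp expression was 57.3, 33.7 and 34.6 FPKM in Tmem173fl/fl replicates 1, 2 and 3, and 299.5, 48.8 and 62.3 FPKM in Tmem173iΔmye replicates 1, 2 and 3. One Tmem173iΔmye tumor was thus far above all others, and the lowest Tmem173iΔmye tumor was below the highest Tmem173fl/fl tumor. Gbp2 was the most abundant member in all 6 tumors and made up between 30.3% and 56.4% of the sum. Ranked by mean FPKM, Gbp2 (44.8) was followed by Gbp3 (12.8), Gbp9 (7.51), Gbp7 (6.28), Gbp4 (6.27), Gbp8 (4.21), Gbp5 (3.67), Gbp2b (2.08) and Gbp6 (1.77). The step from Gbp2 to Gbp3 held in 6 of 6 tumors. Every other neighboring pair changed places in at least 1 tumor, and Gbp2b was above Gbp6 in 2 of 6 tumors only. The makeup of the family also differed between tumors. Gbp9 supplied between 9.86% and 21.1% of the sum in 5 tumors and 4.23% in Tmem173iΔmye replicate 1, where the other abundant members were much higher and Gbp9 was not.

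**Figure D2:**
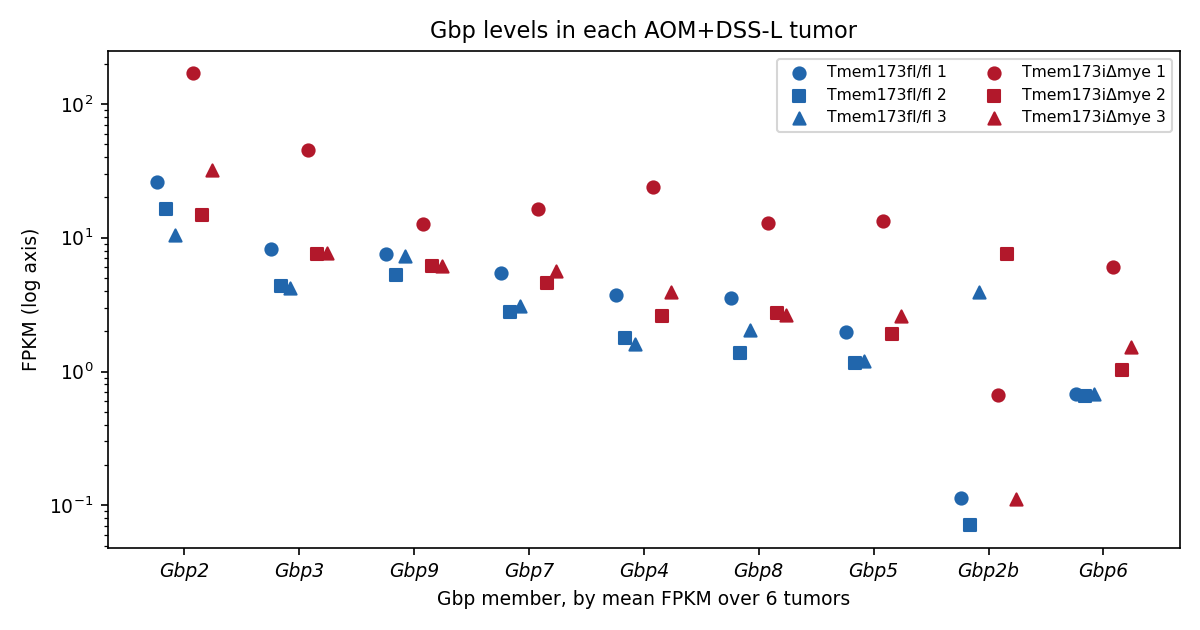
FPKM (y axis, log scale) of the 9 Gbp genes (x axis, ordered by mean FPKM) in 3 Tmem173fl/fl tumors (blue) and 3 Tmem173iΔmye tumors (red), each point being 1 tumor and its shape the replicate number. Tmem173iΔmye replicate 1 is the highest tumor for 8 of 9 genes, and Gbp2b instead peaks in Tmem173iΔmye replicate 2 and Tmem173fl/fl replicate 3.

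The chromosome 3 members other than Gbp2b were all highest in Tmem173iΔmye replicate 1, and in none of them did the groups separate. Gbp2, which is prenylated at its carboxy terminus and is recruited to pathogen-containing vacuoles, had a FPKM of 26.0, 16.3 and 10.5 in Tmem173fl/fl and of 169, 14.8 and 32.2 in Tmem173iΔmye replicates 1, 2 and 3. Replicate 1 was 5.25 times the next tumor, and the second Tmem173iΔmye replicate lay within the Tmem173fl/fl range. By edgeR the log2 fold change was 2.03 (SE 0.83, adjusted p = 0.742), and without that replicate it was 0.41 (SE 0.44). Gbp3 gave 8.29, 4.32 and 4.22 FPKM in Tmem173fl/fl against 44.9, 7.504 and 7.62 in Tmem173iΔmye. Tmem173iΔmye replicates 2 and 3 were almost equal to each other and lay within the Tmem173fl/fl range. The edgeR estimate was 1.83 on the log2 scale (SE 0.72, adjusted p = 0.742), and 0.43 (SE 0.33) without replicate 1.

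Gbp5, known for promoting assembly of the NLRP3 inflammasome, was at 1.96, 1.16 and 1.195 FPKM in Tmem173fl/fl and at 13.2, 1.91 and 2.58 in Tmem173iΔmye. The groups overlapped by a small margin, because Tmem173fl/fl replicate 1 exceeded Tmem173iΔmye replicate 2. Its log2 fold change was 2.03 (SE 0.71, adjusted p = 0.742 by edgeR), and 0.64 (SE 0.31) without replicate 1. Gbp7, which has been linked to oxidative defense at phagosomes, was at 5.43, 2.79 and 3.08 FPKM in Tmem173fl/fl and at 16.2, 4.565 and 5.59 in Tmem173iΔmye. Here replicate 1 was 2.90 times the next tumor, a smaller excess than in Gbp2, Gbp3 or Gbp5. On the log2 scale Gbp7 differed by 1.22 (SE 0.50, adjusted p = 0.742 by edgeR), and by 0.43 (SE 0.32) without it.

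Gbp2b, the mouse gene for GBP1 and like Gbp2 a prenylated member, followed none of this. It had counts of 5, 3 and 187 in Tmem173fl/fl and of 30, 342 and 5 in Tmem173iΔmye replicates 1, 2 and 3. Each group thus held 1 tumor with strong expression, namely Tmem173fl/fl replicate 3 (3.95 FPKM) and Tmem173iΔmye replicate 2 (7.57 FPKM), and 2 tumors with much less. In those 2 tumors Gbp2b made up 11.4% and 15.5% of the Gbp sum, and in the other 4 between 0.180% and 0.223%. The highest tumor was 106.6 times the lowest, against a ratio of at most 16.0 for any other member. Tmem173iΔmye replicate 1, in which the other genes peaked, had 0.669 FPKM of Gbp2b and came after both. The log2 fold change of 1.01 had an SE of 1.60 (adjusted p = 0.884 by edgeR), became 1.46 without Tmem173iΔmye replicate 1 and turned to -1.82 without replicate 2. Gbp2b therefore gave no stable direction between the groups.

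On chromosome 5, Gbp4 was at 3.71, 1.78 and 1.62 FPKM in Tmem173fl/fl and at 24.0, 2.59 and 3.94 in Tmem173iΔmye. Its replicate 1 stood 6.09 times above the next tumor, the largest such excess among the 9 genes. For Gbp4 the log2 fold change was 2.09 (SE 0.82, adjusted p = 0.742 by edgeR), and 0.46 (SE 0.40) without replicate 1. Gbp6 was the 1 member whose groups did not overlap. Of all tested genes, 6.14% were likewise higher in Tmem173iΔmye with no overlap. Its FPKM was 0.677, 0.651 and 0.681 in Tmem173fl/fl, a very narrow range, and 6.05, 1.02 and 1.52 in Tmem173iΔmye. The counts behind these levels were 63, 58 and 68 against 572, 97 and 143. The log2 fold change of 2.09 (SE 0.63, adjusted p = 0.742 by edgeR) fell to 0.92 (SE 0.29, adjusted p = 0.9997) without replicate 1. DESeq2 gave Gbp6 an adjusted p of 0.113, the lowest for any member over 15 alternatives, among which that of Gbp6 ran up to 1.0.

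Gbp8 and Gbp9 were the members that overlap each other and Gbp4 in the annotation. Gbp8 was at 3.57, 1.38 and 2.03 FPKM in Tmem173fl/fl and at 12.9, 2.72 and 2.65 in Tmem173iΔmye. Tmem173iΔmye replicates 2 and 3 lay within the range of Tmem173fl/fl, and the log2 fold change of 1.38 (SE 0.67, adjusted p = 0.742 by edgeR) became 0.20 (SE 0.41) without replicate 1. Gbp9 differed least. Its FPKM was 7.56, 5.30 and 7.30 in Tmem173fl/fl and 12.7, 6.13 and 6.14 in Tmem173iΔmye, and even replicate 1 was only 1.67 times the next tumor. Its log2 fold change was 0.30 (SE 0.31, adjusted p = 0.814 by edgeR), and -0.14 (SE 0.20) without that replicate.

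The study threshold, as given in its methods, was a log2 fold change of 1 or more in either direction together with an unadjusted p under 0.05. For its colitis data, the legend of the study's volcano plot names an adjusted p under 0.05 instead. Counted together, 6 of 9 members (Gbp2, Gbp3, Gbp4, Gbp5, Gbp6 and Gbp7) passed the threshold of the methods, all of them higher in Tmem173iΔmye. Of all tested genes 1.26% did so in that direction. All 9 fitted log2 fold changes were above 0, as were 49.4% of all genes, and their median was 1.83 against -0.0042 over all genes. After Benjamini-Hochberg adjustment 0 members passed in edgeR, as did 0.00% of all genes, while 6 members had an unadjusted p under 0.05, higher in Tmem173iΔmye, as did 3.23% of all genes. DESeq2 likewise called 0 members after adjustment and 0.164% of all genes, and also put 6 members past the study threshold (1.29% of all genes), with Gbp8 in place of Gbp2.

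These counts turned on single tumors. In 7 of 9 members the FPKM of Tmem173iΔmye replicate 1 was over 2 times that of any other tumor, which held for 1.81% of all tested genes. Without it, 0 members passed the study threshold (0.779% of all genes did, in the same direction), 1 member, Gbp6, had an unadjusted p under 0.05 (1.81% of all genes did, in that direction), and the median log2 fold change was 0.43. Leaving out Tmem173fl/fl replicate 2 left 1 member past the threshold and leaving out Tmem173fl/fl replicate 3 left 2, with medians of 1.67 and 1.77. Of all 16426 genes, 314 and 218 passed it in these fits, in either direction. With Y-linked reads as a covariate 1 member passed (211 of all genes did, in either direction), with a median of 1.25.

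**Figure D3:**
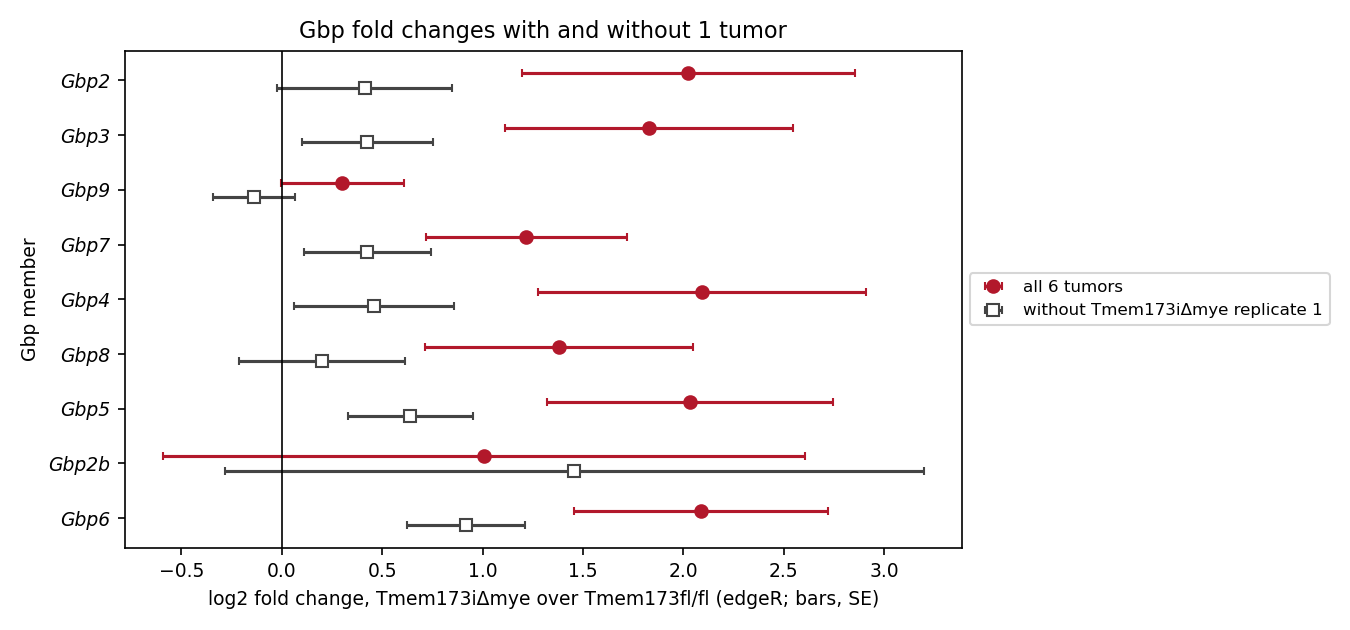
The edgeR log2 fold change of each Gbp gene, Tmem173iΔmye over Tmem173fl/fl, on the x axis with the SE as bars, from all 6 tumors (red circles) and without Tmem173iΔmye replicate 1 (open squares). Removing the tumor moves 8 of 9 genes toward or below 0, Gbp9 to -0.14, and leaves Gbp6 at 0.92.

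Gbp10, the close relative of Gbp6, had few reads. Its counts were 12, 13 and 6 in Tmem173fl/fl and 199, 15 and 33 in Tmem173iΔmye. Its FPKM values did not overlap, as held for 6.14% of all tested genes in that direction. It passed the filter on low values through Tmem173iΔmye replicate 1 (3.24 FPKM), since its mean was 0.172 FPKM in Tmem173fl/fl and 0.391 in the other 2 Tmem173iΔmye tumors, so its difference is a description only. On the log2 scale Gbp10 differed by 2.95 (SE 0.96, adjusted p = 0.742 by edgeR) and by 1.18 (SE 0.59) without replicate 1. Gbp11, annotated as a polymorphic pseudogene, was below the filter with counts of 8, 3 and 0 against 25, 0 and 1.

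The immunity-related GTPases (IRGs) are smaller interferon-induced GTPases that act on the same vacuoles as the GBPs, with the IRGM proteins (Irgm1, Irgm2 and Igtp) as regulators and the others as effectors. Gm12250, listed among the others, is annotated as a processed pseudogene in the deposited data. All 7 IRG genes listed passed the study threshold, higher in Tmem173iΔmye, as did 1.26% of all tested genes. Their median log2 fold change was 2.36. By edgeR 0 passed after adjustment, and all 7 had an unadjusted p under 0.05, as did 3.23% of all genes in that direction. In DESeq2, 6 of 7 passed the study threshold (1.29% of all genes did). Among the effectors, Iigp1 was at 10.8, 4.13 and 4.82 FPKM in Tmem173fl/fl and at 94.5, 5.45 and 13.5 in Tmem173iΔmye, with the peak in replicate 1 and a log2 fold change of 0.52 (SE 0.52) without it. Among the regulators, Irgm2 was at 13.3, 11.2 and 10.9 FPKM against 53.5, 22.4 and 31.1. The groups for Irgm2 did not overlap (6.14% of all genes did not, higher in Tmem173iΔmye), and all 3 Tmem173iΔmye tumors were well above the highest Tmem173fl/fl tumor. Its log2 fold change was 1.59 (SE 0.30, adjusted p = 0.742) by edgeR. Over the 15 alternatives its adjusted p ran from 0.00082 by DESeq2 to 1.0, and it was 0.044 by edgeR without a filter on low values. Irgm2 also passed the study threshold without replicate 1 (1.18, SE 0.18), as did 0.779% of all genes in that direction. It was then the 1 IRG gene of 7 to do so, and the median was 0.66. Leaving out Tmem173fl/fl replicate 2 or replicate 3 likewise left 1 of 7 past the threshold. Of all 16426 genes, 314 and 218 passed it in those fits, in either direction. By DESeq2 Irgm2 was the 1 IRG gene to pass after adjustment, as did 0.164% of all genes. Irgm1 was the smallest of the 7 at 1.38 (SE 0.56) and Igtp the largest at 2.67 (SE 0.89), and without replicate 1 they gave 0.41 (SE 0.30) and 0.95 (SE 0.47). By the deposited coordinates Irgm2 (58199618 to 58222782) and Igtp (58199556 to 58207591) overlap on the plus strand of chromosome 11. Their values may therefore not be independent, and how far they share reads was not tested. In the RefSeq windows, 6 of 6 IRG genes with a window held the ISRE core and 5 held GAS.

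Of the genes that carry the interferon-γ signal, those at the receptor gave values near 0. The ligand Ifng was below the filter, with counts of 0, 0 and 2 in Tmem173fl/fl and of 50, 0 and 3 in Tmem173iΔmye. Nearly all its reads came from Tmem173iΔmye replicate 1, the tumor with the highest Gbp sum. The log2 fold changes were 0.0030 (SE 0.22) for Ifngr1, -0.13 (SE 0.16) for Ifngr2, -0.080 (SE 0.13) for Jak1 and -0.14 (SE 0.12) for Jak2. Further down, Irf1 was at 43.1, 21.2 and 28.9 FPKM in Tmem173fl/fl and at 90.2, 34.9 and 41.0 in Tmem173iΔmye, so that replicate 1 was again the highest by far and the groups overlapped. Its log2 fold change was 0.83 (SE 0.40) and that of the feedback inhibitor Socs1 was 1.08 (SE 0.53), each with an adjusted p of 0.742 by edgeR. Without replicate 1, Irf1 gave 0.28 (SE 0.29) and Socs1 0.16 (SE 0.30). Of the 8 tested genes of this list 0 passed the study threshold in edgeR and 0 had an unadjusted p under 0.05. In DESeq2, 1 passed the threshold, higher in Tmem173iΔmye (1.29% of all genes did). There 2 had an unadjusted p under 0.05, also higher (587 of all 16426 genes did). The median was 0.023, and 0.0010 without replicate 1.

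In the type I interferon list, Ifnb1 had at most 1 count in any tumor. Factors of the ISRE-binding complex gave small positive values, 0.67 (SE 0.29) for Stat2 and 0.47 (SE 0.15) for Irf9, and Irf7 gave 0.95 (SE 0.32), all with an adjusted p of 0.742 by edgeR. Irf9 did not overlap between the groups, at 15.4, 13.3 and 12.1 FPKM against 21.8, 16.5 and 18.0. Nor did Irf3, at 22.7, 17.7 and 22.9 FPKM against 25.3, 24.3 and 25.1. Of all tested genes, 6.14% were likewise higher in Tmem173iΔmye with no overlap of FPKM. The receptor chains gave -0.16 (SE 0.15) for Ifnar1 and 0.16 (SE 0.21) for Ifnar2, and Irf3, the factor that STING activates, gave 0.23 (SE 0.14). Of 7 tested genes 0 passed the study threshold and the median was 0.23. By edgeR 3 (Stat2, Irf9 and Irf7) had an unadjusted p under 0.05, higher in Tmem173iΔmye, as did 3.23% of all genes. Without replicate 1, 0 of the 7 had an unadjusted p under 0.05 by edgeR, with 0.27 (SE 0.18) for Stat2, 0.34 (SE 0.15) for Irf9, 0.59 (SE 0.26) for Irf7 and a median of 0.22.

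The autophagy conjugation genes, whose products are needed to target GBPs and IRGs to vacuoles, gave values near 0. Of 10 genes, among them Atg3, Atg5, Atg7 and Atg16l1, 0 passed the study threshold or had an unadjusted p under 0.05 by edgeR or DESeq2. The median was 0.058 and the largest value 0.32 (Gabarapl1, SE 0.19), and without replicate 1 the median was 0.075. Of the 12 inflammasome and pyroptosis genes, on which GBPs act, 2 passed the study threshold, higher in Tmem173iΔmye (1.26% of all genes did). In DESeq2, 1 of the 12, Il1b, passed it (1.29% of all genes did). The cytokine Il1b was at 10.7, 9.81 and 8.66 FPKM against 57.5, 17.0 and 11.7, with no overlap (6.14% of all genes in that direction). Il1b gave 1.56 (SE 0.54), while the nucleic acid sensor Zbp1 gave 1.39 (SE 0.57), both with an adjusted p of 0.742 by edgeR. Without replicate 1 they gave 0.56 (SE 0.22) and 0.45 (SE 0.35). Casp4, which encodes caspase-11, gave -0.050 (SE 0.20), Aim2 -0.15 (SE 0.15) and the pore-forming Gsdmd 0.32 (SE 0.24). The median of the list was 0.20, and without replicate 1 it was -0.068 with 0 genes past the threshold.

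**Figure D4:**
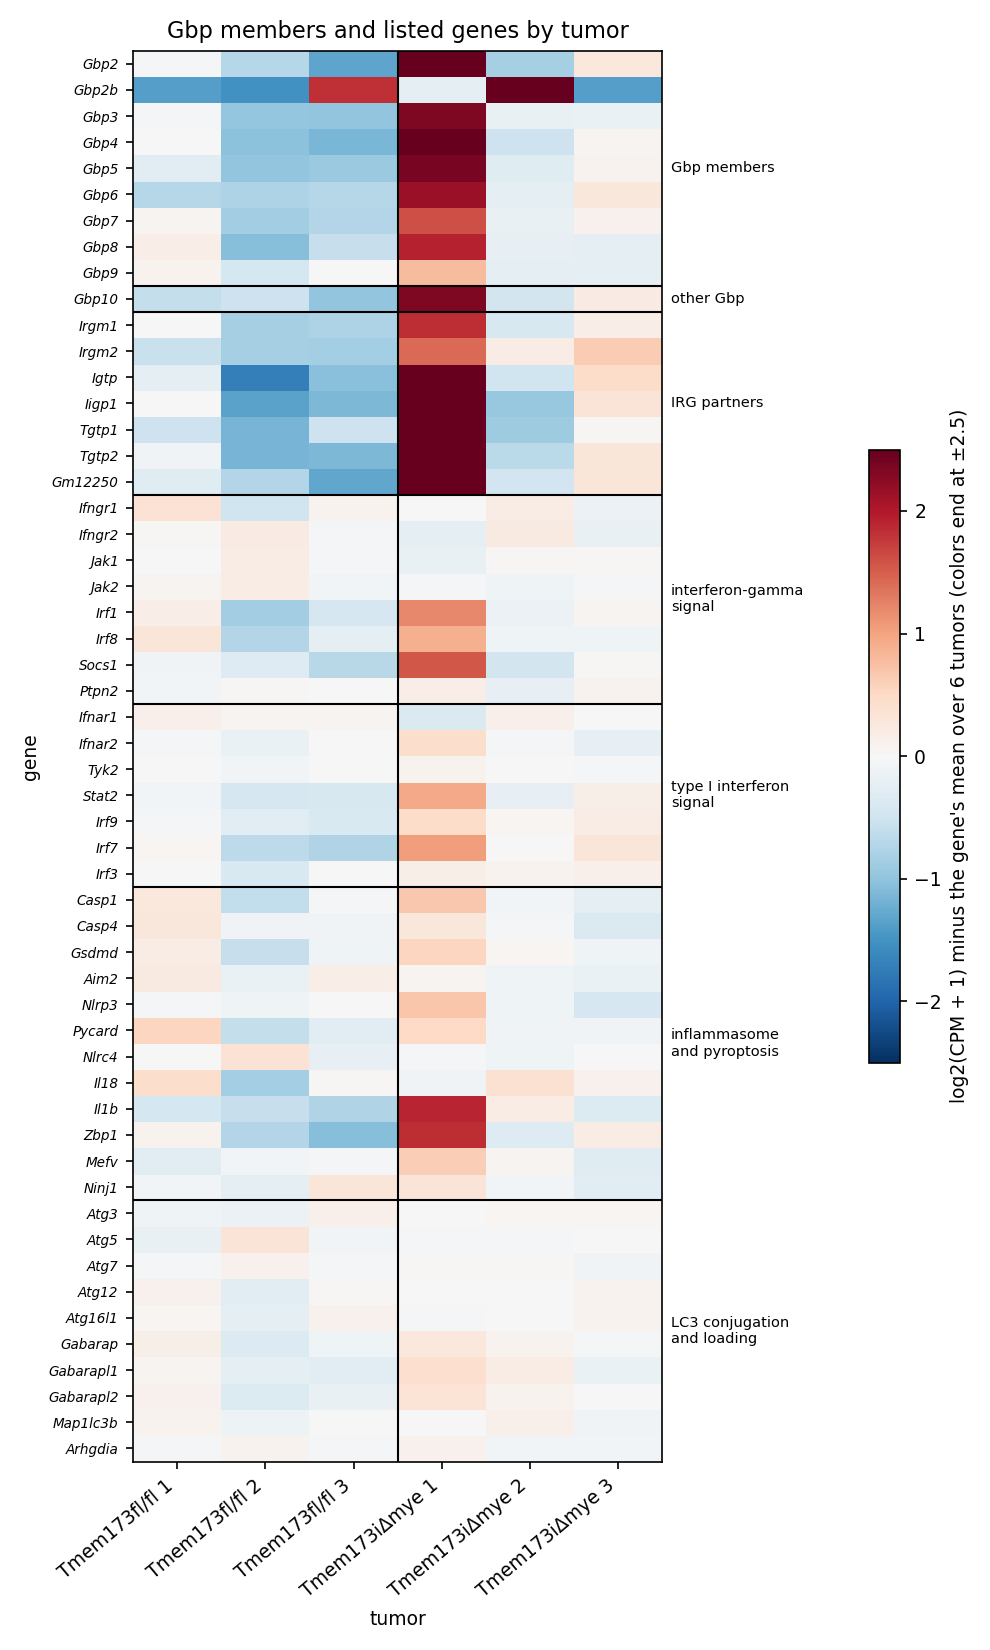
Heat map of log2(CPM + 1) minus each gene's mean over the 6 tumors (color, red above and blue below the mean, ending at ±2.5) for the Gbp genes and the listed interferon, IRG, inflammasome and LC3 genes (rows) in the 6 tumors (columns). Tmem173iΔmye replicate 1 is red for 8 Gbp genes and the 7 IRG genes and pale for the receptors, kinases and LC3 genes, and Gbp2b is red in Tmem173fl/fl replicate 3 and Tmem173iΔmye replicate 2.

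Markers of immune cells moved in part with the tumor in which the Gbp genes peaked. The 10 T and NK cell markers summed to between 8.20 and 21.2 CPM in Tmem173fl/fl and between 17.8 and 30.7 in Tmem173iΔmye, the highest value being that of replicate 1. Of these genes 6 were highest there, 1 of them at over 2 times the next tumor, and the NK markers Ncr1 and Klrb1c had no reads in at least 1 tumor. By edgeR the 6 tested T and NK genes had a median log2 fold change of 0.74, and of 0.53 without replicate 1. Neutrophil markers (6 genes) summed to between 66.5 and 211 CPM in Tmem173fl/fl and between 113 and 373 in Tmem173iΔmye, again with replicate 1 on top in 4 genes, and Mpo was without reads in at least 1 tumor. Of the 5 tested neutrophil genes, 4 were above 0 by edgeR, with a median log2 fold change of 0.74. Without replicate 1 the direction turned, with 1 of 5 above 0 and a median of -0.32. B and plasma cell markers ran from 81.9 to 276 CPM and from 181 to 387 CPM, with replicate 1 at 387, although it was the highest tumor for only 1 of these 5 genes. Gene by gene most of this list went the other way. By edgeR 2 of 5 were above 0, with a median log2 fold change of -0.68, and of -0.26 without replicate 1. Macrophage and monocyte markers, from the cells in which the Cre acts, ran from 401 to 627 CPM in Tmem173fl/fl and from 352 to 580 in Tmem173iΔmye, and dendritic cell markers from 17.1 to 31.3 and from 26.5 to 36.0. Endothelial markers ran from 90.0 to 97.0 and from 92.8 to 115 CPM, fibroblast markers from 1185 to 1560 and from 1253 to 1844, and smooth muscle markers from 244 to 341 and from 183 to 307. The part of these cells in the Gbp values was not tested.

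The genes whose profile over the 6 tumors was most like the mean of the 9 members, by the root mean square (RMS) difference of centered log2(CPM + 1), were BC023105, Igkv5-48, Cdkn2a, Cd274, Il1b, Igkv8-28, Igkv9-120 and C1qtnf3, with differences between 0.12 and 0.23. The mean profile of the 9 includes the deviating Gbp2b. With Gbp2b left out, a choice made after its values were seen, the nearest genes were Irgm1 (0.11), Trf (0.13), Cd74 (0.13), Cd274 (0.14), Ifi47 (0.15), Batf2 (0.17), Zbp1 (0.18) and Bst2 (0.21). Cd274, the gene for the checkpoint ligand PD-L1, was on both lists, with 3.39, 2.60 and 2.32 FPKM in Tmem173fl/fl and 15.7, 3.30 and 4.14 in Tmem173iΔmye. Cd74, the invariant chain of class II antigen presentation, was at 522, 253 and 264 FPKM against 1874, 416 and 444. Both had their peak in Tmem173iΔmye replicate 1 and overlapped between the groups. These likenesses are over 6 tumors and rest largely on that 1 tumor.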

How the data were processed

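Per the labels and the methods of the study, polyA RNA of whole tumors was sequenced. The submitters' processing notes name CASAVA 1.8, fastp, HISAT2 2.0.5, featureCounts 1.5.0-p3 and DESeq2 1.20.0. Strand and multi-mapping settings are not given in the sources used here. For every gene the deposited table gives raw counts and FPKM, the latter scaled by the authors for gene length and library size. The table also holds fold changes and p-values of the authors' own comparison, which were not used.

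The filter (mean FPKM 0.5 or higher) left 16426 genes. Group differences in the counts were fitted in edgeR 4.0.16 under R 4.3.3 (TMM, quasi-likelihood test, group as the only term, Benjamini-Hochberg over all genes). SEs were derived from the log2 fold change and its F statistic. Alternatives used DESeq2 1.42.0 and limma 3.58.1. The edgeR and limma fits were tried on simulated counts with known changes, the same dispersion for all genes and no outlying tumor. DESeq2 and limma voom were not tried in this way. With 3 tumors per group an exact permutation test of 1 gene cannot go below 0.1, so none was run. The named genes were the 9 members, the genes of the pathway lists and the 8 genes nearest to the mean Gbp profile. Members and lists were chosen with earlier results of these data known. Protein sequences were not analysed here. One gene of the interferon-γ list is not reported here.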

Additional observations from a re-analysis of the deposited data

How the results depend on the processing

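No Gbp gene passed after adjustment under any of the 15 alternatives. The number past the study threshold, 6 in the reported fit, was 0 with limma voom, 0 with limma on log2(FPKM + 1), 1 with limma on log2(FPKM + 0.1) and 1 with Y-linked reads as a covariate, and ran from 0 to 7 when 1 tumor was left out. Of all 16426 genes, 274, 136, 290 and 211 passed it in the named fits in turn, in either direction. Between 218 and 636 did so when 1 tumor was left out. The median log2 fold change, 1.83, was 0.98 with limma on log2(FPKM + 1), 1.35 with limma on log2(FPKM + 0.1) and 1.36 with limma voom (the cause was not tested), and ran from 0.43 to 2.22 when 1 tumor was left out. With 1 tumor left out, Gbp2b ran from -1.82 (without Tmem173iΔmye replicate 2) to 4.87 (without Tmem173fl/fl replicate 3), and Gbp9 from -0.14 (without Tmem173iΔmye replicate 1) to 0.48. The other 7 members kept their sign in all alternatives. For the IRG genes 7 alternatives left 1 or 2 of 7 past the threshold. Without a filter 872 genes in all passed the threshold against 349, and with the covariate 211. The median over all genes moved by less than 0.1 in every setting. The labels do not say whether equal replicate numbers pair the tumors. Deviations from the group means correlated at 0.31, 0.0085 and 0.15 for the same number. For different numbers the correlations ran from -0.37 to 0.22, and so few values cannot settle whether the tumors were paired. With the replicate block 7 members passed the threshold, 0 after adjustment, with a median of 1.42. Of all 16426 genes, 377 passed the threshold in that fit, in either direction, and 0 after adjustment. Low counts limit Gbp2b and Gbp10 in some tumors, with 3 and 5 reads of Gbp2b in 3 of them.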

Other observations

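The gene closest to Gbp2b over the 6 tumors was Rpl34-ps1, a ribosomal protein pseudogene on chromosome 6, at an RMS difference of 0.28 in centered log2(CPM + 1). The comparison was chosen after the values of Gbp2b were seen. Rpl34-ps1 was at 36.2, 22.1 and 378 FPKM in Tmem173fl/fl replicates 1, 2 and 3 and at 58.5, 435 and 23.6 in Tmem173iΔmye replicates 1, 2 and 3. Its high tumors, Tmem173fl/fl replicate 3 and Tmem173iΔmye replicate 2, were those of Gbp2b, and the tumor next below them was Tmem173iΔmye replicate 1 for both genes. The next genes were farther away, Gm3608 at 0.89, Alb at 1.05 and Rps4l at 1.06. Gm3608 had 16.9 and 16.6 FPKM in the same 2 tumors and between 4.05 and 4.96 in the other 4. Whether these tumors differ in genetic background was not tested.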
